A study of Mus musculus with 2 samples.

Results

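Histone genes were compared between Mul1 knockout and wild-type mouse oocytes. The genes were taken by their names on the array, as all probes whose gene name begins with Hist1h to Hist4h, H1f, H2af or H3f. This gave 71 genes with 92 probes, out of 37074 gene names and 56600 probes, and 64 of the 71 genes had a probe well above background on both arrays, against 22921 gene names in all. The 71 genes comprised 50 core histone genes of the H2A, H2B, H3 and H4 kinds, 10 linker histone genes and 11 variant genes, of which 46, 9 and 9 were measured. The remaining 7, H1fnt, H2afb1, H2afb2, Hist1h2ad, Hist1h2al, Hist2h2ab and Hist3h2bb-ps, had no probe well above background on both arrays, and no histone gene was measured on 1 array alone.

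Total RNA came from unfertilised oocytes of C57BL/6 mice. The knockout pool held 123 MUL1 -/- oocytes and the wild-type pool held 213 MUL1 +/+ oocytes, and each was amplified with a low-input kit, given a Cy3 label and measured on 1 Agilent array of a single colour. The labels give neither the ages of the mice, nor how many mice contributed, nor which part of Mul1 is missing. With 1 array per genotype there is no replicate, so no difference between the genotypes can be set against the spread between samples and none was tested. Values are the processed signal of the scanner in arbitrary units, and differences are on the log2 scale, knockout minus wild type, after each array was set to its own 75th percentile.

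Histones package DNA. An octamer of H2A, H2B, H3 and H4 forms the nucleosome, and linker histone H1 sits where the DNA enters and leaves it. Most core and H1 genes lie in clusters of near-identical copies that are expressed in S phase, and their mRNAs end in a short stem-loop, bound by SLBP, in place of a poly(A) tail. Variant genes such as H2afz and H3f3b lie outside the clusters and make polyadenylated mRNA throughout the cell cycle. Oocytes store histone mRNA and protein for the first divisions of the embryo, and they use an H1 of their own, H1foo.

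Mul1, a ubiquitin ligase of the mitochondrial outer membrane, had a signal of 1074 on the knockout array and 3353 on the wild-type array at the probe of its RefSeq transcript, a log2 difference of -1.61. A second, dim Mul1 probe read 23.1 in knockout and 19.3 in wild type. All 10 oocyte markers were well above background on both arrays, with a median difference of 0.07, and so were all 15 cumulus and granulosa markers, with a median of 0.10. Markers of myeloid and red cells differed between the pools, and those of oviduct and endothelium did so in part. The 14 myeloid markers, S100a9 and C1qa among them, were all higher in knockout, 11 of them at least 2-fold, with a summed signal of 37900 in knockout and 12200 in wild type. The 6 measured red cell markers were all at least 2-fold lower in knockout, with a summed signal of 19800 in knockout and 61100 in wild type. Of 8 oviduct and endothelium markers 3 (Ovgp1, Kdr and Epcam) were at least 2-fold higher in knockout. Krt8, Krt18, Pecam1, Cdh5 and Tek lay between -0.27 and 0.11. The summed signal of the 8 was 121000 in knockout and 78700 in wild type. Ovgp1, at 69104 in knockout and 24266 in wild type, dominates that gap. Of the 15 cumulus and granulosa markers 3 were higher and 2 lower by 1.5-fold or more, from Star, at 6190 in knockout and 12352 in wild type, to Has2, at 889 in knockout and 407 in wild type. The part of these cells in the histone values below was not tested.

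The histone genes as a group read higher on the knockout array, mostly by less than 2-fold. Of the 64 measured genes 51 had a difference above 0, 3 of them so close to it that they changed sign under quantile normalisation, and the median difference of the 64 was 0.27, against 54.8% of all genes above 0 and a median of 0.03. At least 2-fold higher were 2 histone genes, Hist1h2bq and Hist1h2bg, beside 2.92% of all genes, and at least 2-fold lower were none, beside 1.37% of all genes. The higher count was 12 when the arrays were set to spike-in controls and 0 with normexp, another background correction. At least 1.5-fold higher were 22 histone genes, beside 7.84% of all genes, and 2 were at least 1.5-fold lower, beside 5.19% of all genes. The 22 were 7 H4, 7 H2A, 4 H2B, 1 H3 and 3 linker genes, with no variant gene among them. In pooled RNA a different number of contributing cells and a different amount of RNA per cell cannot be told apart.

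**Figure D1:**
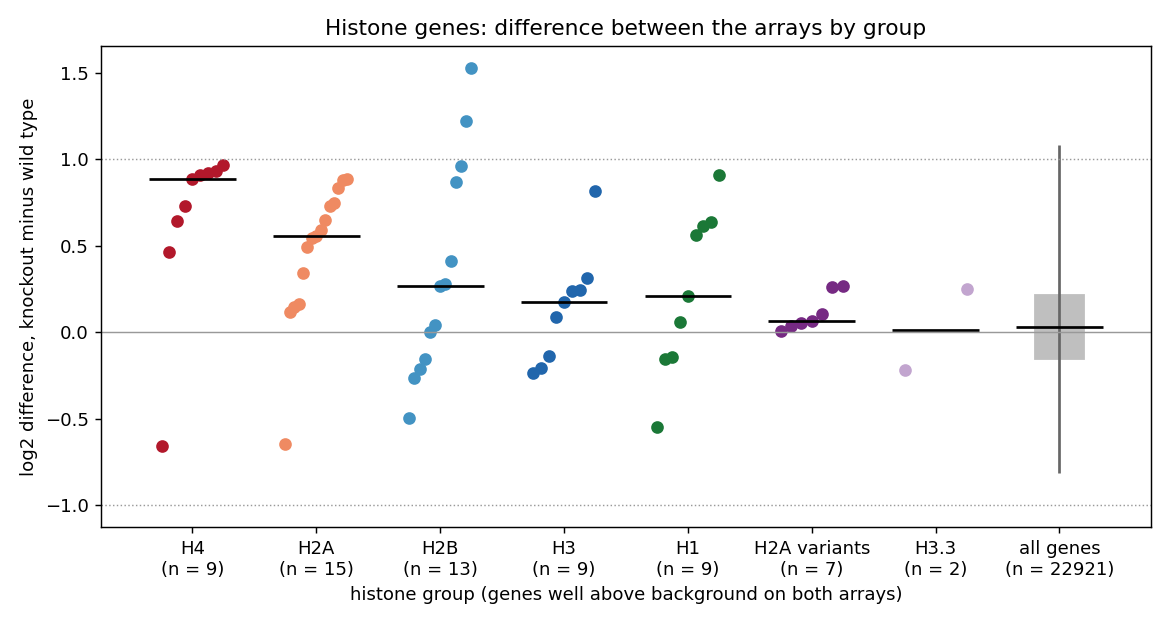
Log2 difference of each measured histone gene, knockout minus wild type (vertical axis), by histone group (horizontal axis, with the number of genes). Points are genes and black bars are group medians; the column for all 22921 genes shows the median, the middle 50% as a grey box and the central 95% as a line, and dotted lines mark 2-fold. H4 genes have the highest median, 0.89, and H2A genes the next, 0.56, while the variants lie close to 0.

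H4, which pairs with H3 at the core of the nucleosome, differed most by median. All its genes encode the same protein, so the copies differ in codons and untranslated sequence. The median over the 9 H4 genes was 0.89, with 8 above 0. Past 1.5-fold were 7 higher genes and 1 lower gene. Hist4h4, the single gene of the cluster on chromosome 6, was highest, with a signal of 2211 in knockout and 1158 in wild type, a difference of 0.97 or 1.95-fold. Of all measured genes 3.13% had a difference at or above this one. Hist1h4h was lowest, at 61.6 in knockout and 99.2 in wild type, a difference of -0.65, which was -0.33 with normexp.

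The H4 genes in between are named here after their values were seen, because their probes carry the result. Hist1h4d has 2 probes, which read 8585 and 41656 in knockout, against 4494 and 22861 in wild type. Both were higher in knockout by nearly the same amount, with differences of 0.97 and 0.90. The second was printed at several places, and over its 9 usable spots on each array the log2 signal had an SD of 0.03 in knockout and 0.09 in wild type. That spread covers printing and scanning only. Hist1h4k also has 2 probes, at 2363 and 17632 in knockout, against 1266 and 9769 in wild type. Hist2h4, on chromosome 3, read 10544 in knockout and 5688 in wild type. Differences were 0.93 and 0.88 at the probes of Hist1h4k and 0.92 for Hist2h4. These genes lie on chromosomes 13 and 3, and Hist4h4 on chromosome 6. With Hist1h4j, at 786 in knockout and 435 in wild type, the 5 highest H4 genes had differences between 0.89 and 0.97. Hist1h4i and Hist1h4c followed at 0.73 and 0.65. Hist1h4m, whose probe was within 4 times the lowest signal counted as above background, had a difference of 0.47.

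Of the H4 probes 5 are shown because near-identical copies set how far the genes can be told apart. Each is 60 bases long and lies in the coding region, at the mm9 positions given in the array files. Hist1h4k (chr13:21842279-21842338, minus strand) and Hist1h4c (chr13:23790223-23790282, minus strand) cover the same codons, and capitals mark the bases where the probes differ.
Hist1h4k: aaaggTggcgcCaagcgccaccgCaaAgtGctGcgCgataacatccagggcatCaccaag
Hist1h4c: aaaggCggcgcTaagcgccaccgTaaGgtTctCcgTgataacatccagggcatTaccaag
These probes share 52 of 60 bases and differ at 8, spread along their length. Their differences between the arrays were 0.93 and 0.65, both higher in knockout. Next are a probe of Hist1h4d that overlaps the same codons (chr13:23673515-23673574, plus strand) and the probes of Hist2h4 (chr3:96066953-96067012, minus strand) and Hist4h4 (chr6:136752717-136752776, minus strand), which lie in other parts of the coding region and are shown without capitals.
Hist1h4d: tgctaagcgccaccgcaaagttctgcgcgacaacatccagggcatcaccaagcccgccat
Hist2h4: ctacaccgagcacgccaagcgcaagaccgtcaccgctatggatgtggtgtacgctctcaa
Hist4h4: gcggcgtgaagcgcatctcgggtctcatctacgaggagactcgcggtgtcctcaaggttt
Although they lie in different stretches of the H4 message, these 3 probes gave differences of 0.97, 0.92 and 0.97. Of the 11 measured H4 probes, 6 list accessions of more than 1 current RefSeq gene, so the 9 genes are not 9 separate measurements. Without these probes 5 H4 genes remained, with a median of 0.90.

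**Figure D2:**
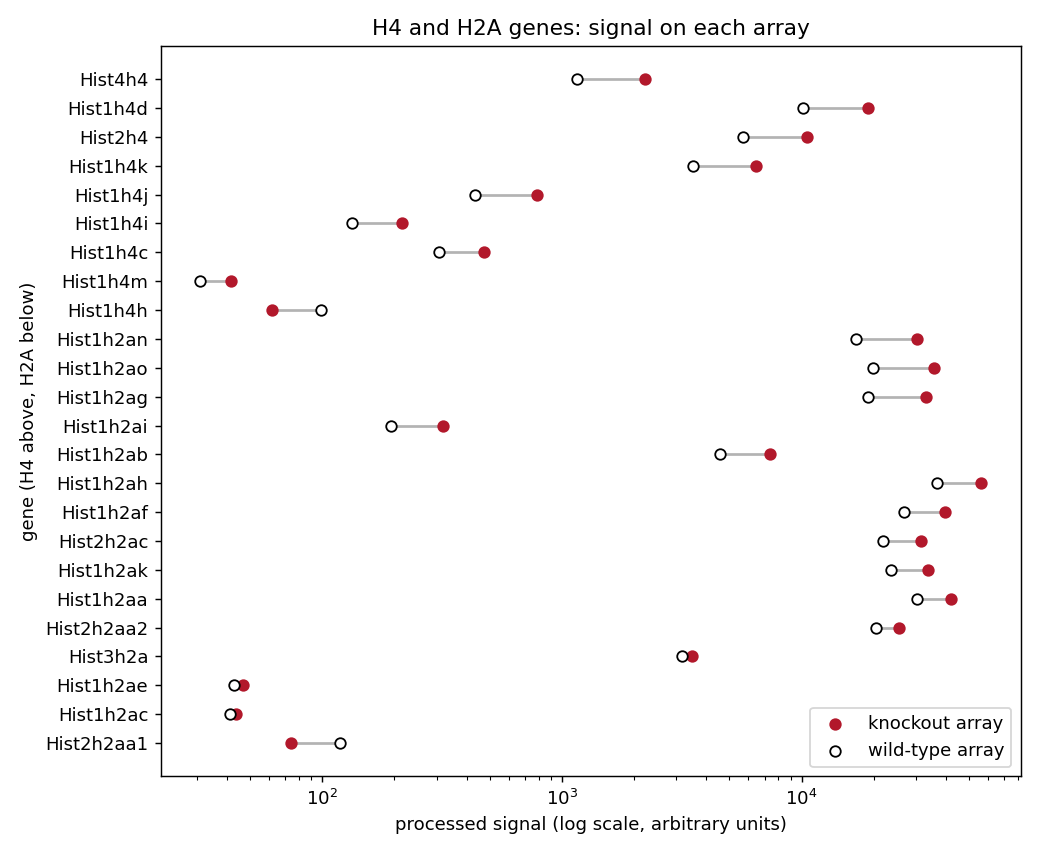
Processed signal of each measured H4 and H2A gene (horizontal axis, log scale, arbitrary units; mean of the log2 signals where a gene has several probes) on the knockout array (filled) and on the wild-type array (open). Genes run down the page by difference within H4 and within H2A. Knockout lies to the right of wild type for 8 of 9 H4 and 14 of 15 H2A genes; Hist1h4h and Hist2h2aa1 lie the other way.

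H2A, which with H2B forms the dimers at the faces of the nucleosome, came next. The median over 15 measured H2A genes was 0.56, with 14 above 0. Past 1.5-fold were 7 higher genes and 1 lower gene. Hist1h2an was highest, at 30285 in knockout and 16777 in wild type, a difference of 0.88 or 1.85-fold. Hist2h2aa1 was lowest, at 74.0 in knockout and 118 in wild type, a difference of -0.64, on a probe that starts 1673 bases into a long cDNA. With normexp that difference was -0.37, short of 1.5-fold. Hist1h2aa, known as a testis and oocyte H2A, read 41917 in knockout and 30387 in wild type, a difference of 0.50. Its probe matches that of Hist2h2ac at 54 of 60 bases. It also shares runs of 44 and 39 bases with the probes of Hist1h2ah and Hist1h2af, so its signal may not be its own. All 11 H2A genes of the Hist1 cluster on chromosome 13 were above 0, between 0.12 and 0.88, and their median was 0.65. The lowest, Hist1h2ac at 0.12 and Hist1h2ae at 0.15, rest on dim probes with larger scanner errors, 0.26 and 0.24. Several of the 11 probes share long runs, so the 11 are not separate measurements. The 3 measured H2A genes of the Hist2 cluster on chromosome 3 lay between -0.64 and 0.56. Hist3h2a, on chromosome 11, had a mean of 0.17 over 2 probes with differences of 0.06 and 0.28.

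Within H2A the probes resemble each other even more than within H4. Among all histone probes 42 pairs of different genes shared a run of at least 20 bases, and 27 of these pairs joined H2A probes, 10 probes in all. Shown are 4 H2A probes that end at the stop codon, for Hist1h2an (chr13:21902669-21902728, plus strand), Hist1h2af (chr13:23626113-23626172, plus strand), Hist1h2ak (chr13:21845304-21845363, minus strand) and Hist2h2aa2 (chr3:96043781-96043840, minus strand). The last 3 are named after their values were seen. Capitals mark, in Hist1h2an, each base that differs in any of the others, and in the others each base that differs from Hist1h2an.
Hist1h2an: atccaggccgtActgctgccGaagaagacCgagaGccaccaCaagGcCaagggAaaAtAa
Hist1h2af: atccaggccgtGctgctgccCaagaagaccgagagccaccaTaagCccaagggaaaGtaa
Hist1h2ak: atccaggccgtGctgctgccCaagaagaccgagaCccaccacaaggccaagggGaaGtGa
Hist2h2aa2: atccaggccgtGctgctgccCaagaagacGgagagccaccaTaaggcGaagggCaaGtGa
Hist1h2an shares 55 of 60 bases with Hist1h2af, 54 with Hist1h2ak and 52 with Hist2h2aa2. Their differences between the arrays were 0.88, 0.59, 0.55 and 0.34 in the order shown, all higher in knockout. Cross-hybridisation between such probes was not tested. Without the 6 H2A probes that list several RefSeq genes the H2A median was 0.50. Probes kept still include those of Hist1h2aa and Hist2h2ac, which match at 54 of 60 bases, so that median does not come from well-separated probes. The strand in the files differs from that of the RefSeq gene for 5 of 81 histone probes, Hist1h2an among them, so the printed position of that probe may be that of another copy.

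H2B genes were spread more widely around their median of 0.27, with 9 of 13 above 0, of which Hist1h2bn and Hist1h2bp, at 0.004 and 0.04, turned below 0 under quantile normalisation, loess and the authors' values. The 2 histone genes past 2-fold were both H2B genes with modest signals. Hist1h2bq read 120 in knockout and 42.5 in wild type, a difference of 1.53 or 2.89-fold, and Hist1h2bg read 124 in knockout and 54.3 in wild type, a difference of 1.22 or 2.33-fold. With normexp, which compresses dim signals, neither was past 2-fold, at 0.87 and 0.73. Each rests on 1 probe. That of Hist1h2bq lies, in wild type, within 4 times the lowest signal counted as above background. It also lists 2 RefSeq genes. Hist1h2bc was lowest, at 7355 in knockout and 10584 in wild type, a difference of -0.49. Hist1h2ba, the H2B of testis and oocyte that lies beside Hist1h2aa, read 1461 in knockout and 1728 in wild type, a difference of -0.21. The probe of its neighbour went the other way, but that probe shares long runs with probes of other H2A genes. Hist1h2bb has 2 probes that go opposite ways, one near background at 0.74 and another at -0.21, and the gene turned below 0 where only the second counted. The brightest H2B probes, of Hist1h2bc, Hist1h2bm, Hist1h2ba and the second of Hist1h2bb, were all lower in knockout. The H2B differences above 0 came from dimmer probes. Hist1h2bm, named after its values were seen, read 2726 in knockout and 3104 in wild type, a difference of -0.16. Its probe and the second of Hist1h2bb list several RefSeq genes.

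H3 genes had a median of 0.17 and 6 of 9 lay above 0, with Hist2h3c1 turning above 0 under spike-in scaling. Hist1h3g was highest, with a dim signal of 47.9 in knockout and 27.8 in wild type, a difference of 0.82, and it was the one H3 gene past 1.5-fold. With normexp its difference was 0.30, below 1.5-fold. Hist1h3a was lowest, near background at 25.1 in knockout and 30.2 in wild type, a difference of -0.24 with a scanner error of 0.30. The 8 H3 genes other than Hist1h3g lay between -0.24 and 0.31. By far the brightest of them was Hist1h3d, at 42146 in knockout and 49633 in wild type, a difference of -0.20. It is named after its values were seen, and its probe lists several RefSeq genes. H3 is the partner of H4 in the nucleosome, and whether the 2 groups differ was not tested.

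The linker histones were mixed, with a median of 0.21 and 6 of 9 above 0. H1foo, the oocyte linker histone, read 64974 in knockout and 73397 in wild type, a difference of -0.14. This is smaller than the scanner error of that difference, 0.20. The 11 alternative settings run for it reuse the same 2 arrays. Under them the difference ranged from -0.17 to -0.0085, the latter on the spike-in scale. H1f0, the replacement H1 of resting cells, read 1093 in knockout and 1247 in wild type, a difference of -0.16. H1fx, a divergent H1 gene outside the clusters, read 758 in knockout and 524 in wild type, a mean difference of 0.57 over 2 probes at 0.48 and 0.65.

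The 6 somatic and testis H1 genes of the Hist1 cluster ranged widely. Hist1h1d was highest, at 733 in knockout and 400 in wild type, a difference of 0.91. Hist1h1b followed at 3699 in knockout and 2432 in wild type, a difference of 0.64. Both lie in the range of the H4 and H2A genes. Hist1h1t, the H1 of spermatocytes, was barely above background, at 21.2 in knockout and 14.1 in wild type, a difference of 0.62 that was 0.16 with normexp. Hist1h1e read 7775 in knockout and 6863 in wild type, a difference of 0.21, and Hist1h1a read 311 in knockout and 306 in wild type, a difference of 0.06. Hist1h1c went the other way, at 7803 in knockout and 11664 in wild type, a mean difference of -0.55, and both its probes were lower in knockout, at -0.42 and -0.67. No linker probe listed more than 1 RefSeq gene.

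The variants stood nearest to 0, with a median of 0.06 and none past 1.5-fold in either direction. H2afz, the H2A.Z gene whose product marks promoters, read 111991 in knockout and 111807 in wild type, a difference of 0.03, over 10 and 9 spots with SDs of 0.04 and 0.06 on the log2 scale. H2afv, the second H2A.Z gene, read 36664 in knockout and 34877 in wild type, a difference of 0.10. Neither H2A.Z gene differed by more than the scanner error of its difference between the arrays, about 0.20 on the log2 scale. For H2afz that error is averaged over spots and not reduced for their number. H2afx, which is phosphorylated at DNA breaks, read 4402 in knockout and 3733 in wild type, a difference of 0.27. H2afj, a variant close to canonical H2A, read 43782 in knockout and 37356 in wild type, a difference of 0.26. Its probe shares a run of 38 bases with that of Hist2h2aa2, and 45 of 60 bases with those of Hist1h2aa and Hist2h2ac. These pairs are not among the 27 counted above for H2A, and cross-hybridisation was not tested.

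The macroH2A genes, which carry a large non-histone domain, were also near 0. H2afy had a mean of 0.05 over 5 probes that ranged from -0.44 to 0.23, with a signal of 1228 in knockout and 1211 in wild type. H2afy2 read 2802 in knockout and 2743 in wild type, a difference of 0.06. H2afy3, listed with a non-coding accession, read 2128 in knockout and 2167 in wild type, a difference of 0.01. All 7 measured H2A variants were above 0, except that H2afy3 turned below 0 under quantile normalisation, loess, normexp and the authors' values. The 2 genes of H3.3, the H3 laid down outside S phase, had means on opposite sides of 0. H3f3b read 59488 in knockout and 70858 in wild type, a difference of -0.22, with -0.23 and -0.21 at its 2 probes. H3f3a read 4410 in knockout and 3789 in wild type, a mean of 0.25 over 3 probes. The one at the start of the transcript gave 0.53 on a dim signal, at 92.8 in knockout and 65.6 in wild type. The others gave 0.12 and 0.10, at 13990 and 66044 in knockout and 13132 and 63144 in wild type. These others list more than 1 RefSeq gene. With the brightest probe alone the difference of H3f3a was 0.10, smaller than the scanner error of 0.20.

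**Figure D3:**
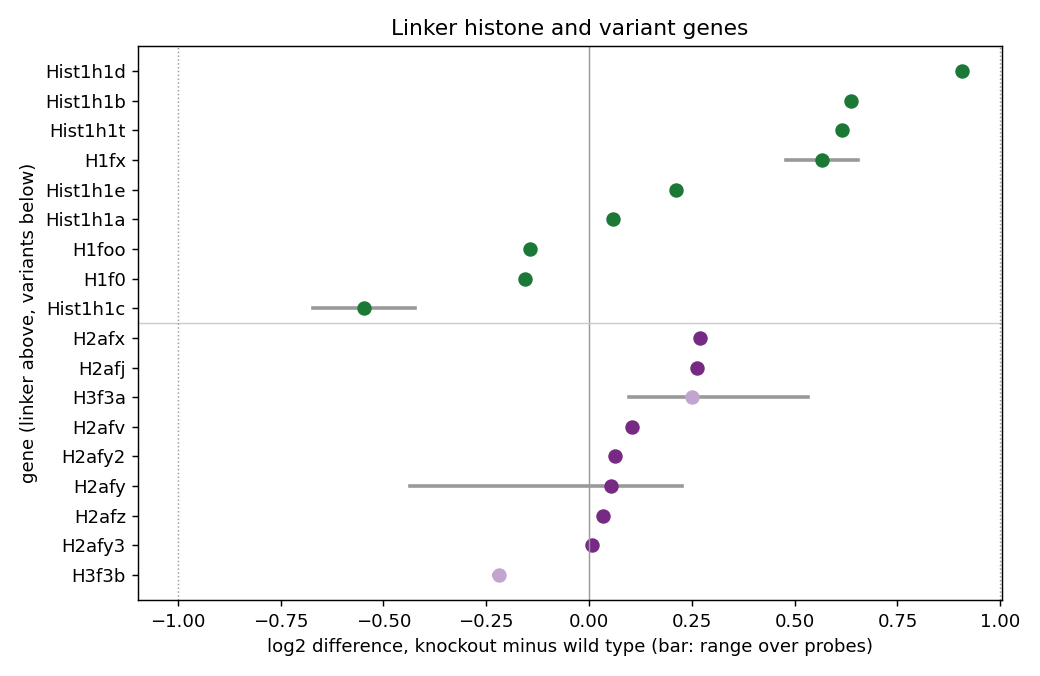
Log2 difference, knockout minus wild type (horizontal axis), of the 9 measured linker genes (above the line) and the 9 measured variant genes (below it). Points are genes and grey bars span the probes of a gene; dotted lines mark 2-fold. Linker genes run from Hist1h1c at -0.55 to Hist1h1d at 0.91, while the variants keep within -0.22 and 0.27.

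By genome cluster, the 40 measured genes of Hist1 had a median of 0.52, the 9 of Hist2 had 0.28 and the 2 of Hist3 had 0.29. The clusters hold different mixes of histones, and their order was not the same within each. Medians in Hist1 were above those in Hist2 for H2A, 0.65 against 0.34, and for H3, 0.21 against 0.09. They were below for H2B, 0.02 against 0.62, and for H4, 0.73 against 0.92, the last from 1 gene. Hist4 is represented by Hist4h4 alone. Many histone genes were bright. Of the 27 histone genes among the brightest 20% of all genes, 10 were at least 1.5-fold higher and none was as much lower, with a median of 0.34. Of all 4585 genes in that bright class 75 were at least 1.5-fold higher, or 1.64%, and 80 as much lower, or 1.74%, with a median of 0.02. At that share of lower genes, nothing is read from the absence of lower histone genes.

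The differences are also given by the place of the probe in its transcript. A border at 500 bases was chosen after the values were seen, so the split is a description of these probes only. Of the 38 core probes that start before base 500, the length within which a typical core histone mRNA ends, 32 were above 0 and the median was 0.62. Of the 15 that start later, 11 were above 0 and the median was 0.12. H2A had a median of 0.62 over 12 early probes and 0.09 over 4 late ones. The late H2A probes of Hist1h2ac, Hist1h2ae and Hist2h2aa1 were dim, at 43.8, 46.7 and 74.0 in knockout. Early H2A probes read from 319 to 56229 in knockout, so place and signal cannot be told apart here. H3 had 0.24 over 7 early probes, which ranged from -0.24 to 0.82, and 0.01 over 3 late ones. H2B had 0.21 over 8 early and 0.27 over 8 late probes, the other way round, and all H4 probes start early. The late probes lie in transcripts that run on past the usual stem-loop end. Kits of this type often prime from poly(A) tails, and the labels do not give the primer, so differences in tail, length and amount of histone mRNA cannot be told apart.

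**Figure D4:**
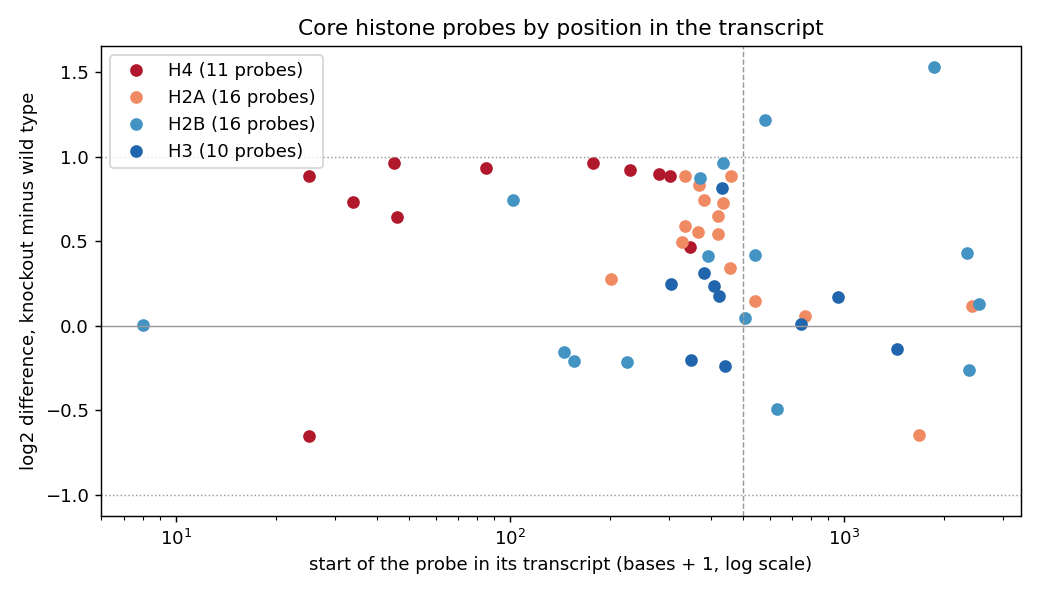
Log2 difference, knockout minus wild type (vertical axis), of each measured core histone probe against its start in the listed transcript (bases plus 1, log scale), coloured by histone. The dashed line marks 500 bases and dotted lines mark 2-fold. Most H4 and H2A probes sit left of the line above 0.5, and later probes scatter around 0 apart from 2 H2B probes above 1.

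Some probes reach the 3′ stem-loop itself, which is shown because it is what SLBP binds. The letters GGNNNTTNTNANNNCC, searched on both strands, occur in 6 histone probes and in 98 of the 56605 probes on the array, or 0.173%, which include 5 that had no usable spot on one of the arrays and are not among the 56600 above. Capitals mark the arms that pair in the stem.
Hist2h2bb, Hist1h2bf, Hist1h3i and Hist1h3a: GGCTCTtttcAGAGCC
Hist1h3g: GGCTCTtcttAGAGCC
Hist1h4m: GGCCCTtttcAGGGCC
The 4 probes with the same element did not read alike. Hist2h2bb, at 239 in knockout and 125 in wild type, and Hist1h2bf, at 540 in knockout and 302 in wild type, had differences of 0.96 and 0.87. Hist1h3i had 0.17 and Hist1h3a had -0.24. These genes other than Hist1h3g and Hist1h3a were named for their element.

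Promoters were searched for 3 motifs in RefSeq windows of GRCm38.p6, from 250 bases before to 50 after each gene's start, on both strands. CCAAT, the box bound by NF-Y, was in 17 of 17 H2A, 11 of 11 H2B and 7 of 7 H3 promoters. It was in 7 of 10 H1 and 2 of 8 H4 promoters, beside 41.1% of all promoters. The octamer ATTTGCAT, known from H2B promoters, was in 6 of 11 H2B and 7 of 17 H2A promoters and in none of the H4, H3 and H1 promoters, beside 1.97% of all. TATAAA was in 5 of 8 H4, 11 of 17 H2A, 7 of 11 H2B, 2 of 7 H3 and 4 of 10 H1 promoters, beside 15.7% of all. A match says that the letters are there, not that a factor binds them. H2A and H2B genes often stand head to head, so their windows can overlap.

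Genes that act on histones and their mRNAs were described by list. Of 25 measured genes for histone mRNA transcription, 3′ processing and decay none was 1.5-fold apart, and the median was 0.06. Ccne2, cyclin E2, was highest at 0.41 on a dim probe, at 28.8 in knockout and 22.2 in wild type, and Cstf2t, a cleavage factor, was lowest at -0.39, at 5544 in knockout and 7426 in wild type. Of 39 histone chaperones and exchange factors the median was 0.01. By 1.5-fold or more 1 was higher, beside 7.84% of all genes, and 3 were lower, beside 5.19%. With so few genes, nothing is read from these counts about the list. The lowest, and the one past 2-fold, was Anp32a, a chaperone-like acidic protein, at 4693 in knockout and 9637 in wild type. Its mean difference was -1.01, just past 2-fold, from probes at -1.29 and -0.72. Of all genes 1.37% were at least 2-fold lower. Nap1l2, a nucleosome assembly protein, read 55.3 in knockout and 99.0 in wild type, and Spty2d1, an H3-H4 chaperone, read 2937 in knockout and 5243 in wild type, with differences of -0.81 and -0.80. They are named after their values were seen. Hjurp, the chaperone of the centromeric H3 variant, was highest at 0.61, from probes at -0.08 and 1.29. Of 6 histone-like genes outside the naming rule 3 were measured. Cenpa, that centromeric H3 itself, read 4877 in knockout and 4022 in wild type, a difference of 0.31, and Prm2, a protamine, read 50.3 in knockout and 59.5 in wild type, a difference of -0.21.

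Of 20 genes of S phase and proliferation 18 were above 0, with a median of 0.24 and none past 1.5-fold. Tk1, thymidine kinase, was highest at 0.57, with 326 in knockout and 225 in wild type, and Cdt1, a licensing factor, was lowest at -0.10, with 3117 in knockout and 3423 in wild type. This list went the same way as the core histone genes, and the part of dividing somatic cells in either was not tested.

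The scale of the arrays moves these values together. Scaled on 7 spike-in control probes instead of the 75th percentile, the median of all genes was 0.16, the histone median 0.40 and the H4 median 1.02. That scaling shifts all genes by the same amount. Under quantile normalisation, loess, normexp and the authors' values, which do not, 8 of 9 H4 and 14 of 15 H2A genes were above the median of all genes, the same counts as in the values reported. Hist2h3c1 was the one histone gene that turned from below to above 0 on the spike-in scale.

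**Figure D5:**
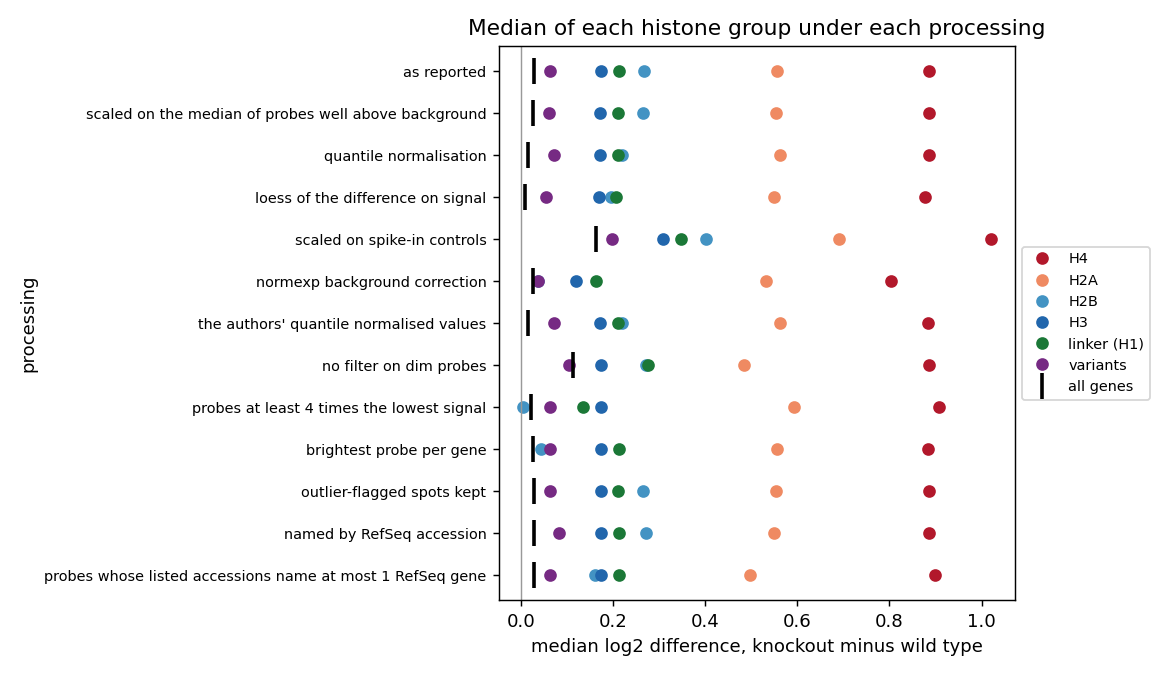
Median log2 difference, knockout minus wild type (horizontal axis), of each histone group and of all genes under each processing (vertical axis). Points are medians over the measured genes of a group and black ticks are medians over all genes. H4 stays between 0.80 and 1.02 and H2A between 0.48 and 0.69, while H2B drops to 0.004 where dim probes are left out.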

How the data were processed

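Per the file headers the deposited tables give linear intensity per spot, background-subtracted and detrended within each array and not normalised between arrays. The headers name Agilent Feature Extraction 10.7.1.1 and the submitters' processing notes 9.5.1.1; probe positions are on mm9. Outlier spots (84 on the knockout array, 88 on the wild-type array) and controls were left out, spots of a probe were averaged as log2 intensity, and each array's 75th percentile (signals of 790 in knockout and 808 in wild type) was subtracted. A gene is the mean of its probes well above background on both arrays; the lowest such signal was 15.8 in knockout and 12.9 in wild type. All 92 histone probes matched a RefSeq gene, 73 by accession and the rest by synonym. Over 296 probes printed at 10 spots, the SD of the log2 difference between spots had a median of 0.06; the scanner error of a histone probe's difference was 0.20 to 0.40. Named are every linker and variant gene, Hist1h2aa, Hist1h2ba, core genes 2-fold apart, the extremes of each core group and the extremes of the other lists. The members and lists were chosen with earlier results of these data known. Tools were Python 3.11.15, pandas 2.3.3, statsmodels 0.14.6 and limma 3.58.1, and the steps were tested on simulated data. Alternatives were other scalings, background corrections, filters, probe rules, naming by accession and the authors' deposited quantile normalised intensity.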

Additional observations from a re-analysis of the deposited data

How the results depend on the processing

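The histone median stayed between 0.21 and 0.40 under all alternatives, the core median between 0.28 and 0.58, the linker median between 0.14 and 0.35 and the variant median between 0.04 and 0.20. The count of histone genes at least 2-fold higher, 2 as reported, was 12 scaled on spike-in controls, 0 with normexp, 1 with probes at least 4 times the lowest signal, and 1 without probes that name several RefSeq genes, an alternative chosen after seeing the data. The count at least 2-fold lower was 0 throughout. On the spike-in scale all genes split into 904 at least 2-fold higher and 202 lower, or 81.7% higher, against 68.2% as reported. The H2B median was 0.04 with normexp, 0.004 with the stricter filter and 0.04 with the brightest probe per gene. Hist1h2bn and Hist1h2bp changed sign under quantile normalisation, loess and the authors' values, and Hist1h2bb under the stricter filter and the brightest probe. No paired analysis was possible because each genotype has 1 array. Of the measured histone probes 10 lay within 4 times the lowest signal, and their differences are the least precise.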

Other observations

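Some probes annotated as histone genes stand on the array under other names and were outside the naming rule. A transcript described as H2aa1 of the second histone cluster read 7984 in knockout and 9497 in wild type, a difference of -0.22. A transcript described as histone H4i read 460 in knockout and 372 in wild type, a difference of 0.34. A transcript described as H3f3a read 376 in knockout and 331 in wild type, a difference of 0.22. LOC102642045, described as H3.3-like, gave 0.09 and 0.08 at its 2 probes. H2bfm, an H2B-like gene, read 25.4 in knockout and 26.5 in wild type, a difference of -0.03.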
